A study of Mus musculus with 56 samples.

Results

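Messenger RNAs of 10 genes of the endoplasmic reticulum (ER) stress and integrated stress response were followed in mouse livers that had lost miR-122. The genes were picked by name (Hspa5, Xbp1, Ddit3, Atf4, Trib3, Asns, Dnajb9, Herpud1, Sesn2 and Chac1), with earlier results of these data known, and all 10 were among the 21888 gene symbols of the RNA-seq table. Values are FPKM, read fragments scaled for transcript length and library size. The scaling does not remove every difference between libraries, as described below for the knockout.

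Proteins that fold badly in the ER are sensed by the membrane proteins Perk, Ire1 and Atf6. Ire1 splices the Xbp1 message and Atf6 is cut to a free transcription factor, and both then raise chaperones such as Hspa5 and the machinery that removes misfolded proteins. Perk, and other kinases that respond to amino acid shortage, heme shortage or viral RNA, phosphorylate the initiation factor eIF2, which lowers protein synthesis overall while the Atf4 message is translated better, and Atf4 in turn raises Ddit3, Trib3, Chac1, Asns and Sesn2. The liver secretes most plasma proteins, and its hepatocytes hold an extensive ER.

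RNA-seq libraries of 14 livers were analysed, 1 mouse each, all labelled as strain background 129Sv/J. The 11 floxed mice carried loxP sites around miR-122. At day 0 (n = 3, replicates A, B and C) they had received no vector. At days 21 and 45 (n = 3 each, A, B and C), day 100 (n = 1) and day 200 (n = 1) they had received rAAV8-Ef1a-Cre, an adeno-associated virus with Cre recombinase under the broadly active Ef1a promoter, by tail vein as adults. The remaining 3 mice (A, B and C) were miR-122 knockouts (122ko), which are not described as floxed or as given a vector. The day 0 mice had no control vector, so that vector and excision cannot be told apart, and the ages at harvest and the sexes were not given in the sources used here. In small RNA libraries with the same labels, miR-122 made up 59.2% to 73.3% of the listed microRNA reads at day 0, 8.22% to 13.2% at day 21, 0.383% to 1.23% at day 45, 4.46% at day 100 and 19.1% at day 200. No small RNA library of the knockout was analysed here. Days 100 and 200 were joined as 1 group of 2 livers.

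Knockout A and B stood apart from the other libraries, including knockout C. Over the 11354 tested genes they correlated with each other at 0.986 (Pearson, log2(FPKM + 1)) but with knockout C at only 0.881 and 0.896, whereas knockout C correlated at 0.927 to 0.955 with the floxed livers. In A and B the level relative to day 0 followed the GC content of the transcript. The median log2 difference from the day 0 mean ran from −1.11 and −0.89 in the tenth of genes with the least GC to 0.84 and 0.80 in the tenth with the most, whereas in knockout C it was 0.09 and −0.03. Days 45, 100 and 200 carried a weaker trend of the same direction, with spans of 0.21 to 0.44. The GC content of the 10 genes ran from 38.3% (Dnajb9) to 58.7% (Sesn2), and the median of tested genes was 50.3%. The step between low FPKM values, which is what 1 fragment is worth, implied roughly 23.4 (A), 30.9 (B) and 28.2 (C) M fragments (mega, 10 to the power of 6) in the knockout libraries and 37.2 to 61.7 M in the floxed ones. By the same rough measure the smallest value of a member, Asns in a day 0 liver, rested on about 30 fragments. The knockout results of the 10 genes against day 0, and the counts of the lists of pathway genes, are therefore also given after a GC correction and from knockout C alone. Both were added after the data had been seen. Of the cell type markers, only some are given in this way.

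**Figure D1:**
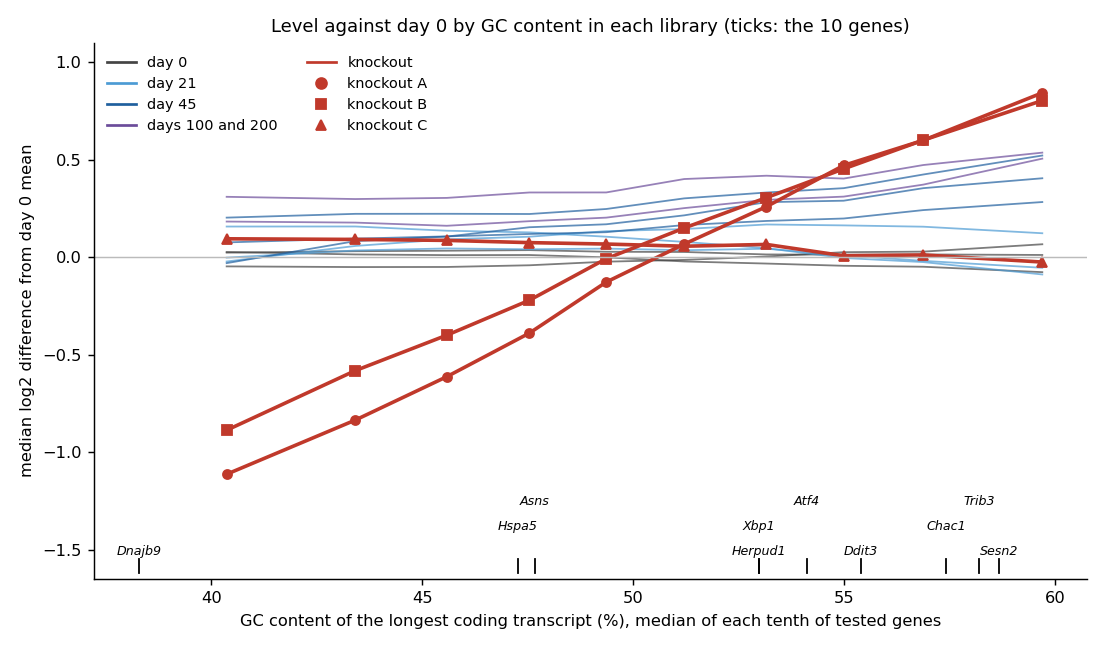
Median log2 difference of tested genes from the day 0 mean (vertical axis) by GC content of the longest coding transcript in percent (horizontal axis, 10 groups of genes), 1 line per library, with ticks at the GC content of the 10 genes. Knockout A and B rise from −1.11 and −0.89 to 0.84 and 0.80 across the axis, whereas knockout C stays between 0.09 and −0.03 at its ends.

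A few known elements of both pathways were looked for at the start of each gene. Other known elements were not searched, so that a gene without a match here may still hold one. RefSeq promoters (assembly GRCm38.p6, 250 bases before to 50 after the start of transcription) were found for all 10 genes and searched on both strands. The ER stress response element (ERSE), bound by Atf6 and Xbp1 with NF-Y and spelled here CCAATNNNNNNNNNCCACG, was in the promoter of 1 of the 10 genes, Hspa5, and in 0.12% of 32544 mouse promoters. The C/EBP-ATF response element (CARE), bound by Atf4 and Ddit3 with C/EBP partners and spelled TGATGNAA, was in 4 of the 10 (Asns, Trib3, Herpud1 and Chac1) and in 3.91% of all promoters. The element TGACGTGG, known as UPRE, was in none of the 10 and in 0.682% of all promoters. The stretches around the ERSE and CARE matches are shown because Hspa5 and Asns gave the largest fall and the largest rise of the 10 in the knockout. A link between element and change was not tested. The other genes with a CARE had log2 differences of 1.23 (Trib3), −0.02 (Herpud1) and 1.42 (Chac1) between knockout and day 0. They read 5′ to 3′ on the strand of the gene, with the element in capitals, and a CARE on the opposite strand appears as its reverse complement.
Hspa5, ERSE 65 bases before the start, chr2:34771975-34772093, plus strand: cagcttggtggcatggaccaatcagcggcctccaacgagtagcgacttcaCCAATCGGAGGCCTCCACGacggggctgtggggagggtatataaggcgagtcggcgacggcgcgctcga
Asns, CARE 23 bases before the start, chr6:7693175-7693282, minus strand: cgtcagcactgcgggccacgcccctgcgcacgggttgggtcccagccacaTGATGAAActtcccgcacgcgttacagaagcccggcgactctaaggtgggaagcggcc
Trib3, CARE from base 15 of the transcript, opposite strand, chr2:152344011-152344096, minus strand: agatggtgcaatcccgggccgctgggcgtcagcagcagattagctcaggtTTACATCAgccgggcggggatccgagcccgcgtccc
Herpud1, CARE 112 bases before the start, opposite strand, chr8:94386267-94386374, plus strand: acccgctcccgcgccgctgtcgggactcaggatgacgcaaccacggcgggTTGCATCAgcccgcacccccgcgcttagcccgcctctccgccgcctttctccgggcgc
Chac1, CARE 193 bases before the start, opposite strand, chr2:119350999-119351106, plus strand: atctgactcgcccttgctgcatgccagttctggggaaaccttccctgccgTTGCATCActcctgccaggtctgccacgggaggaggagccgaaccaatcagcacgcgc

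After Cre, Sesn2 was the only one of the 10 that rose at every time point, Hspa5 fell at day 45 and Chac1 rose at days 100 and 200, whereas Atf4, Ddit3, Xbp1, Herpud1 and Trib3 did not pass the test in any comparison of the fit of all groups. In the knockout, Asns, Chac1 and Sesn2 rose while Hspa5 and Dnajb9 fell, but the calls of Chac1 and Dnajb9 were lost after the GC correction (1.00 and −0.53) and from knockout C alone (0.75 and −0.39), and those of Asns and Sesn2 from knockout C alone (2.86 and 0.54). Differences were tested with limma on log2(FPKM + 1), with p-values adjusted by Benjamini-Hochberg over the 11354 genes whose mean reached 1 FPKM, a filter that all 10 genes passed. A gene is called where the adjusted p is under 0.05. Fold changes on this scale understate the change of genes near 1 FPKM.

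At day 21, 1 of the 10 genes was called (7.62% of all tested genes were called), at day 45, 2 of 10 (26.7%), at days 100 and 200, 2 of 10 (31.6%), and in the knockout, 5 of 10 (33.8%), each against day 0. The median log2 fold change of the 10 genes was 0.21, 0.09, 0.46 and 0.28 in these comparisons, beside 0.06, 0.20, 0.31 and 0.02 over all tested genes. After the GC correction 3 of the 10 were called in the knockout (Asns and Sesn2 higher, Hspa5 lower, against 32.7% of 11090 genes), and from knockout C alone 1 of 10 (Hspa5, against 5.79% of 11348 genes). None of the 10 was called between days 45 and 21 (0.273% of genes) or between days 100 and 200 and day 45 (0.22%), where 2 and 1 of the 10 had an unadjusted p under 0.05. Between the knockout and day 45, 3 of 10 were called (9.44%).

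**Figure D2:**
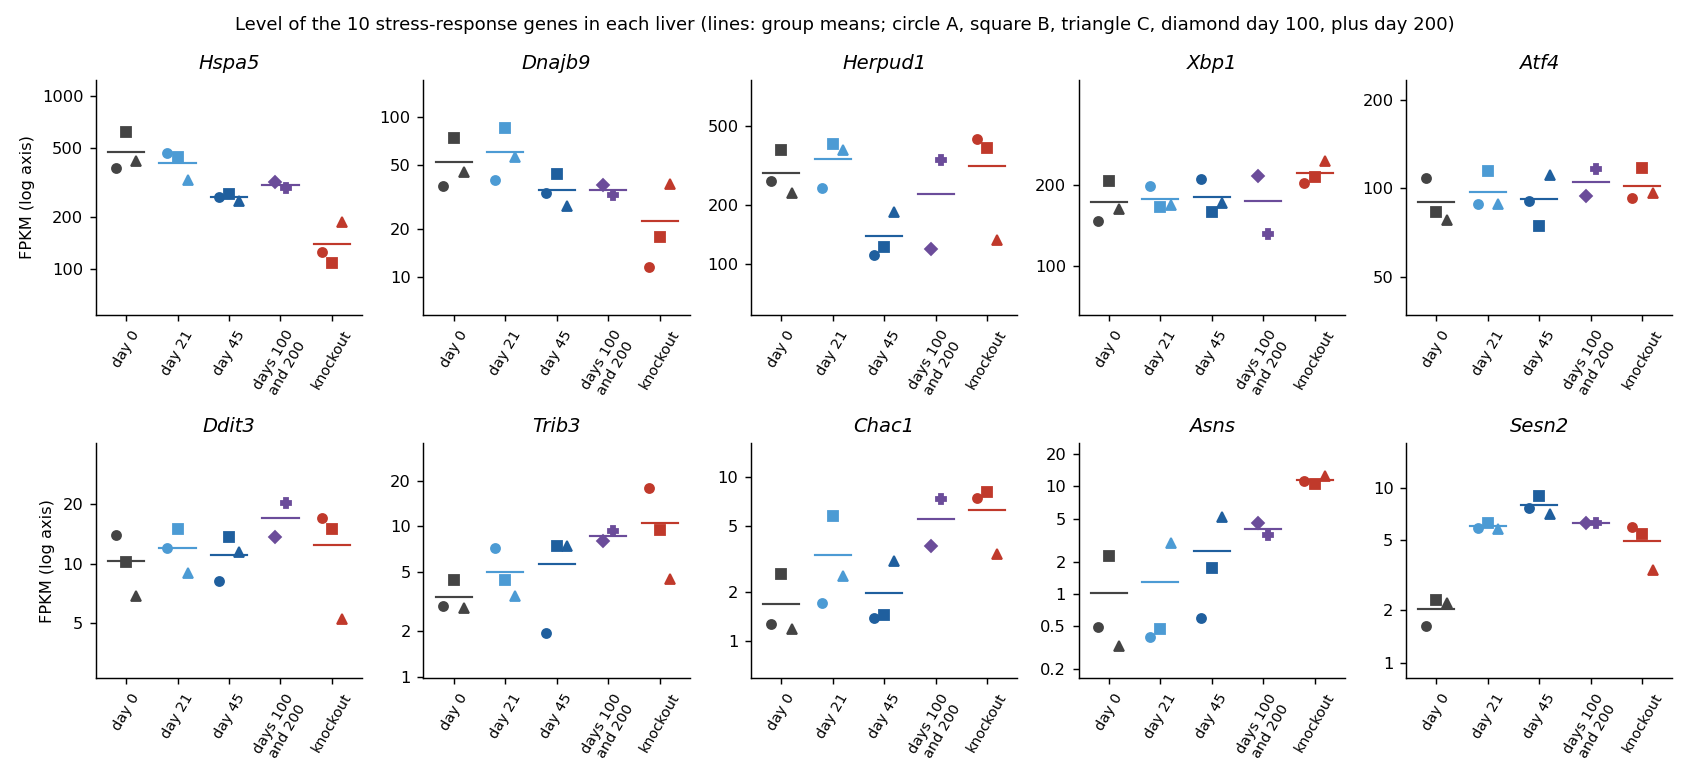
FPKM (log axis) of each of the 10 genes in each of the 14 livers, by group, with a line at the group mean and the replicate letters as symbols. Sesn2 lies between 1.62 and 2.29 at day 0 and between 5.85 and 9.03 at days 21 and 45, and Hspa5 falls from 381 to 618 at day 0 to 109 to 186 in the knockout.

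Hspa5, also called BiP or Grp78, is the Hsp70 of the ER and holds Perk, Ire1 and Atf6 inactive in unstressed cells (mm9 chr2:34627609-34632049). It was the most abundant of the 10 genes at day 0, with 381, 618 and 422 FPKM in mice A, B and C. At day 21 it stood at 468, 441 and 325, at day 45 at 260, 272 and 247, at day 100 at 319 and at day 200 at 295. Every liver from day 45 on lay below the lowest day 0 liver, and the day 21 livers overlapped day 0. Hspa5 fell by 0.83 ± 0.23 (SE) on the log2 scale at day 45 (limma, adjusted p = 0.0194), from a mean of 474 ± 127 to 260 ± 12.52 FPKM (SD, n = 3 each), which is 1.03 below the median of all genes. At days 100 and 200 the difference was −0.59 ± 0.26 (limma, adjusted p = 0.107), and under median scaling it was −0.88 and called (limma, adjusted p = 0.0251). The day 45 call was lost when day 0 B, the highest liver, was left out (−0.62, limma, adjusted p = 0.0876), without day 45 B or day 45 C, and with the replicate letter as a block (limma, adjusted p = 0.0501).

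In the knockout Hspa5 stood at 126, 109 and 186 FPKM, below every floxed liver. It fell by 1.76 ± 0.23 against day 0 (limma, adjusted p = 0.000384), by 1.52 after the GC correction (limma, adjusted p = 0.000236) and by 1.31 from knockout C alone (limma, adjusted p = 0.0240). No setting that was tried removed this call. Against day 45 it was lower by 0.92 ± 0.23 on the log2 scale (limma, adjusted p = 0.0335), but 9 of 15 alternative settings lost that call, among them knockout C alone (−0.48, limma, adjusted p = 0.387). In order of the group means the levels ran from day 0 (474) and day 21 (411) to days 100 and 200 (307), day 45 (260) and the knockout (140), and day 21 and day 0, which overlapped, did not pass the test (limma, adjusted p = 0.724). Both livers of days 100 and 200 lay above all day 45 livers, with a difference of 0.24 ± 0.26 that did not pass the test (limma, adjusted p = 0.958).

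Dnajb9, or ERdj4, is an ER co-chaperone of Hspa5 and a target of Xbp1 (mm9 chr12:45306883-45311055). It stood at 37.0, 74.5 and 45.3 FPKM at day 0, at 40.4, 86.1 and 56.2 at day 21, at 33.4, 43.9 and 27.8 at day 45, at 37.5 at day 100 and at 32.8 at day 200. Each of these groups overlapped day 0, although day 45 A and C and the day 200 liver lay under every day 0 liver, and none of the 3 comparisons with day 0 passed the test. Dnajb9 was at 11.5, 17.7 and 38.0 FPKM in knockout A, B and C, so that C lay within the day 0 range. The called difference from day 0 was −1.29 ± 0.40 (limma, adjusted p = 0.0270). Its transcript has the least GC of the 10, and the difference was −0.53 after the GC correction (limma, adjusted p = 0.127) and −0.39 from knockout C alone (limma, adjusted p = 0.648).

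Herpud1 is an ER membrane protein that takes part in the removal of misfolded proteins (mm9 chr8:96910399-96919258). It was at 262, 378 and 228 FPKM at day 0 and at 243, 402 and 377 at day 21, but at 111, 122 and 183 at day 45. All 3 day 45 livers lay below all day 0 and day 21 livers, and the difference of −1.06 ± 0.46 from day 0 did not pass the test (limma, adjusted p = 0.114). In a fit of only these 2 groups, where the standard error was 0.26, it was called lower (limma, adjusted p = 0.0180). Day 100 (120) resembled day 45 while day 200 (334) lay within the day 0 range. The knockout split in the same way, with 426 and 385 in A and B and 133 in C. The difference between knockout and day 0 was −0.02 with all 3 libraries, −0.20 after the GC correction and −1.09 from C alone, and none passed the test (limma, adjusted p = 0.979, 0.742 and 0.249).

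None of the comparisons passed the test for the 3 transcription factors among the 10 genes. Xbp1, whose spliced form drives chaperone genes, stood between 147 and 206 FPKM at day 0, between 165 and 199 at day 21, between 158 and 210 at day 45, at 216 and 131 at days 100 and 200, and between 204 and 246 in the knockout. Gene-level FPKM do not separate its spliced from its unspliced form. Its log2 differences from day 0 were between −0.02 and 0.37 (limma, adjusted p from 0.171 to 0.970), and the knockout difference of 0.37 was 0.19 after the GC correction and 0.53 from C alone. Atf4, which is controlled largely by translation, stood between 74.3 and 117 FPKM over all 14 livers, with log2 differences from day 0 between 0.02 and 0.23, the narrowest range of the 10. Its knockout difference of 0.19 was −0.05 after the GC correction and 0.11 from C alone.

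Ddit3, or Chop, is a transcription factor that promotes cell death under lasting ER stress. It was at 14.0, 10.2 and 6.85 FPKM at day 0, and every group overlapped that range. The highest liver was day 200 (20.4) and the lowest was knockout C (5.27), while knockout A and B were at 17.1 and 15.1. No difference from day 0 passed the test (limma, adjusted p from 0.242 to 0.879). The sign of the knockout difference turned from 0.16 to −0.15 after the GC correction and to −0.81 from knockout C alone.

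Trib3, a pseudokinase that restrains Atf4 and Ddit3, was at 2.94, 4.43 and 2.85 FPKM at day 0. At day 45 the mice differed widely, at 1.95, 7.44 and 7.36. Days 100 and 200 (7.93 and 9.31) and the knockout (17.8, 9.42 and 4.47) lay above all day 0 livers, though the differences of 1.14 ± 0.51 and 1.23 ± 0.46 did not pass the test (limma, adjusted p = 0.110 and 0.0534). The knockout difference was 0.78 after the GC correction (limma, adjusted p = 0.124) and 0.33 from knockout C alone (limma, adjusted p = 0.771), but 1.69 and called without knockout C (limma, adjusted p = 0.00513). A fit of only day 0 and days 100 and 200 called the late rise (limma, adjusted p = 0.00515), and median scaling that of the knockout (1.26, limma, adjusted p = 0.0479).

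Chac1 breaks down glutathione and is a sensitive target of Atf4. It was at 1.26, 2.57 and 1.18 FPKM at day 0, at 1.70, 5.82 and 2.48 at day 21 and at 1.37, 1.44 and 3.09 at day 45, with overlapping groups. The liver of day 100 had 3.82 and that of day 200 had 7.36. Chac1 rose by 1.29 ± 0.44 in these 2 livers (limma, adjusted p = 0.0402), but the call was lost under median scaling (1.06, limma, adjusted p = 0.105), and without either liver (limma, adjusted p = 0.0636 and 0.273) or without day 0 A or C (1.19 and 1.16). In the knockout it was at 7.48, 8.09 and 3.37, above day 0 in all 3. The rise of 1.42 ± 0.39 (limma, adjusted p = 0.0173) was 1.00 after the GC correction (limma, adjusted p = 0.0515) and 0.75 from C alone (limma, adjusted p = 0.432).

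Asns makes asparagine from aspartate and glutamine and is raised by Atf4 when amino acids are short (mm9 chr6:7625170-7643182). It is low in adult liver, and was at 0.492, 2.27 and 0.330 FPKM at day 0. The livers after Cre were uneven, at 0.403, 0.472 and 2.97 at day 21, at 0.605, 1.76 and 5.17 at day 45, and at 4.55 and 3.51 at days 100 and 200. Both late livers lay above all day 0 livers, with a difference of 1.42 ± 0.56 that did not pass the test (limma, adjusted p = 0.0704) and that reached an adjusted p of 0.0497 in limma after the GC correction and of 0.0293 in a fit of only these groups.

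The 3 knockout livers were alike in Asns, at 11.1, 10.5 and 12.6 FPKM, a mean of 11.4 ± 1.06 (SD, n = 3) against 1.03 ± 1.08 at day 0. The rise of 2.73 ± 0.50 (limma, adjusted p = 0.00245) was the largest change of any of the 10 genes. It was 2.93 after the GC correction (limma, adjusted p = 0.00130). From knockout C alone, the library with the highest value, it was 2.86, and the fit with a single knockout liver gave an adjusted p of 0.0545 in limma. The knockout was also higher than day 45, by 2.04 ± 0.50 (limma, adjusted p = 0.0301), a call that 7 of 15 alternative settings lost.

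Sesn2, a stress-induced inhibitor of mTORC1 that both Atf4 and p53 raise, was above its day 0 range in every other liver (mm9 chr4:132048721-132066371). It was at 1.62, 2.29 and 2.19 FPKM at day 0, at 5.91, 6.31 and 5.85 at day 21, at 7.71, 9.03 and 7.09 at day 45, at 6.26 at day 100 and at 6.28 at day 200. All 8 livers after Cre lay above all day 0 livers, at 2.96 times the day 0 mean at day 21, 3.90 times at day 45 and 3.08 times at days 100 and 200. Sesn2 rose by 1.22 ± 0.18 at day 21 (limma, adjusted p = 0.00362), by 1.56 ± 0.18 at day 45 (limma, adjusted p = 0.000242) and by 1.27 ± 0.20 at days 100 and 200 (limma, adjusted p = 0.000576), and each of these calls held in every alternative. Neither day 45 against day 21 nor days 100 and 200 against day 45 passed the test (limma, adjusted p = 0.363 and 0.848). Sesn2 is among the predicted targets of miR-122 that the study lists.

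In the knockout Sesn2 was at 6.01, 5.48 and 3.38 FPKM, above day 0 in all 3 livers. The rise of 0.95 ± 0.18 (limma, adjusted p = 0.00262) was 0.48 after the GC correction (limma, adjusted p = 0.0210) and 0.54 from C alone (limma, adjusted p = 0.0904). The knockout was lower than day 45 by 0.61 ± 0.18 on the log2 scale (limma, adjusted p = 0.0488), a call that 11 of 15 alternative settings lost, while after the GC correction the difference was −0.92 (limma, adjusted p = 0.00303).

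**Figure D3:**
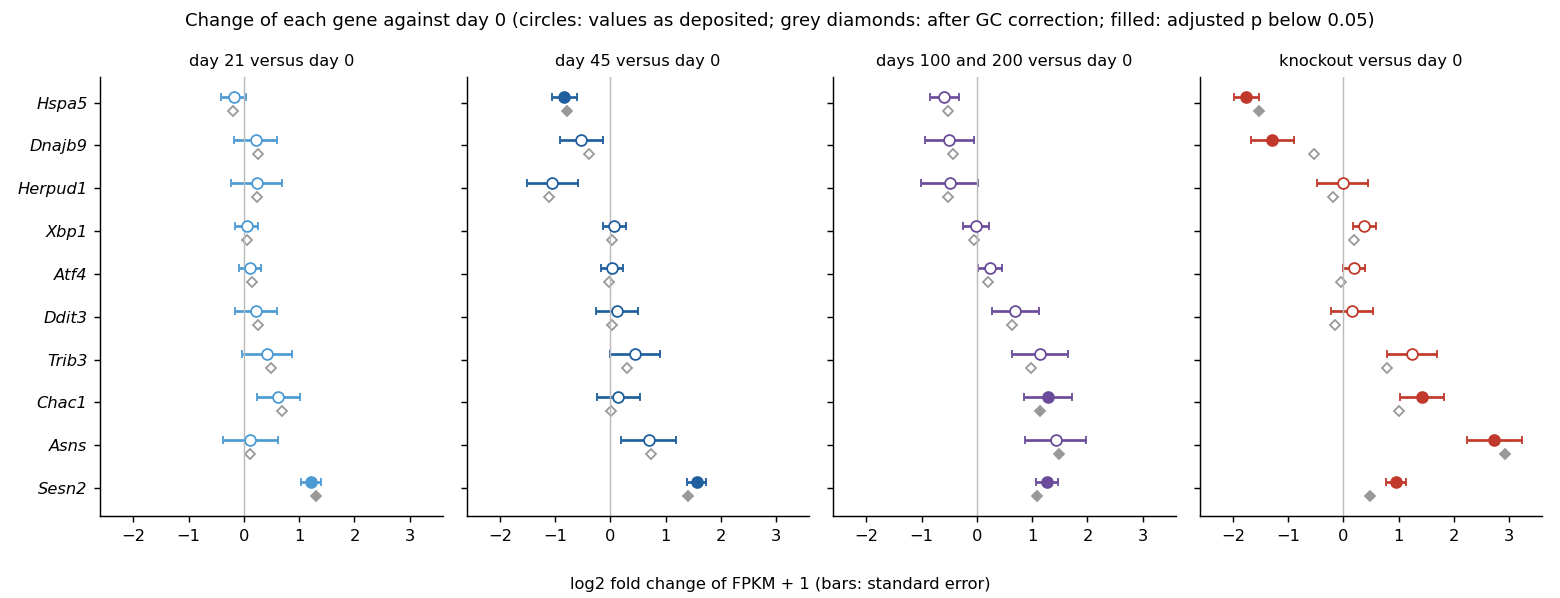
Log2 fold change of FPKM + 1 against day 0 for each of the 10 genes in 4 comparisons, with standard errors; circles are the values as deposited, grey diamonds those after the GC correction, and filled symbols are called. Asns in the knockout is the largest rise (2.73) and Hspa5 in the knockout the largest fall (−1.76), and Dnajb9 moves from −1.29 to −0.53 with the correction.

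Markers of other cell types were higher after Cre, and in bulk tissue fewer cells of a type and less RNA per cell cannot be told apart. Plasma and B cell markers, a cell type with a very large ER and high Xbp1, summed to 2.78 to 6.38 FPKM at day 0, 26.2 to 168 at day 21, 49.6 to 110 at day 45, 100.0 to 127 at days 100 and 200 and 8.06 to 22.3 in the knockout, over 11 genes. Of the 6 of these that were tested, 5 were called higher at day 21 and all 6 at days 45 and at 100 and 200, with none at 0 throughout any group. Much of the plasma and B cell sum after Cre was Igj. Igj stood at 13.65 to 112 FPKM at day 21, 30.8 to 82.5 at day 45 and 81.3 and 102 at days 100 and 200. Macrophage markers summed to 253 to 459 FPKM at day 0 and 640 to 1101 after Cre, with all 11 genes called higher at day 45, and to 325 to 873 in the knockout. Much of the macrophage sum was Lyz2 and Cd5l, at 279 to 342 and 232 to 235 FPKM at day 45. Cholangiocyte markers summed to 51.9 to 67.3 at day 0, 146 to 214 at day 21, 430 to 1417 at day 45, 2036 to 3056 at days 100 and 200 and 577 to 854 in the knockout. Most of this sum was Spp1 (osteopontin), at 383 to 1259 FPKM at day 45 and 506 to 732 in the knockout. At day 45, 5 of 8 T and NK cell markers, 4 of 8 endothelial markers and all 9 stellate cell and fibroblast markers were called higher, and in the knockout 4, 0 and 6 (5, 0 and 7 after the GC correction, and 0, 0 and 1 from C alone). Hepatocyte markers summed to 26920 to 29560 FPKM at day 0, 25450 to 26560 at day 21, 20420 to 26840 at day 45, 15440 to 23290 at days 100 and 200 and 24800 to 32420 in the knockout, and of the 9 tested none was called at day 21 or 45 (medians of 0.00 and −0.13), 1 was lower at days 100 and 200, and 1 was higher and 1 lower in the knockout. Most of the sum was Apoa1 (means of 12210 FPKM at day 0 and 7426 at day 21) and Ttr (8595 and 9328). Alb was listed at 0 in every library and Serpina1a in those of days 0, 21 and 45, which may be failed estimates. Serpina1a is among the 9 tested, so its difference at days 21 and 45 was fixed at 0 and it could not be called. The medians of 0.00 and −0.13 include it. The part of these cells in the levels of the 10 genes was not tested.

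Among genes outside the 10, the profile of Sesn2 over the 14 livers was most like those of Apbb1ip, Tmc8 and Nfam1, genes known from leukocytes (Pearson r on log2(FPKM + 1) of 0.97, 0.96 and 0.95). Hspa5 was most like Hsp90b1, the ER paralog of Hsp90 (0.96), then Sec31b and Adipor2 (0.95 and 0.94). Dnajb9 was most like Zbtb11, Kif1b and Ints6 (0.95, 0.95 and 0.93), and Asns like Rbpms, 8430410A17Rik and Tomm40l (0.90 each). Herpud1 was most like Hspa1b, a stress-inducible Hsp70, Tmc7 and Rcl1 (0.84, 0.84 and 0.80). Atf4 followed Zfp623 (0.96), Tmc7 and Rps6 (0.68 and 0.67). Ddit3 was most like Fam193b, Rhobtb1 and Lrch4-sap25 (0.84, 0.84 and 0.84), Trib3 like Meaf6, Gps2 and Mnt (0.89, 0.87 and 0.87), and Chac1 like Pcbp2, Ip6k2 and Camp (0.88, 0.82 and 0.81). The groups of the 14 livers and the GC trend of knockout A and B bear on many genes. These values therefore only describe likeness. Among the 10 genes, Hspa5 and Dnajb9 went together (0.85 over 14 livers, 0.71 over the 11 floxed), as did Trib3 and Chac1 (0.70 and 0.55) and Trib3 and Ddit3 (0.66 and 0.70), whereas Hspa5 and Asns went apart (−0.78 and −0.42).

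The other genes of these pathways were read from 8 lists. Of all tested genes, 6.2% were called higher and 1.42% lower at day 21, 23.7% and 2.99% at day 45, 28.4% and 3.21% at days 100 and 200, and 19.3% and 14.5% in the knockout. The GC correction raised the share called of all tested genes to 14.2%, 34.2% and 41% in the first 3 of these comparisons, and the corrected counts of these lists were likewise mostly equal or larger there, with 5 stress-induced factors higher at day 21, 3 heat shock genes lower at day 45 and 3 ER chaperones and 4 amino acid genes lower at days 100 and 200. Of 27 ER chaperones and folding enzymes, none was called at day 21. At day 45, 2 were higher (Fkbp11 by 0.93 and Dnajc10 by 0.73) and 1 was lower (Manf, a secreted stress protein, which fell by 0.84). The abundant P4hb, the ER's protein disulfide isomerase, and Ppib, a prolyl isomerase, had differences of 0.18 and −0.20 that did not pass the test (limma, adjusted p = 0.416 and 0.472). The median of this list was −0.20 at day 45 and −0.47 in the knockout, against 0.20 and 0.02 for all genes.

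In the knockout 10 of these 27 genes were called lower and 1 higher. The lower ones included Ero1lb (−1.68), Hyou1 (−1.38), Hsp90b1 (−1.29) and Canx (−0.94), which were named after their values were seen, and Fkbp11 was the higher one (1.24). After the GC correction 13 were lower and 2 higher, with a median of −0.44, where 13.2% of all tested genes were lower and 19.5% higher. From knockout C alone 2 were lower and none higher, with a median of −0.29, where 1.87% of all tested genes were lower and 3.92% higher.

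Of 32 genes of ER-associated degradation and translocation, Edem2 was called higher (0.75) and Derl2 lower (−0.53) at day 45, the latter not after the GC correction (−0.43, limma, adjusted p = 0.133), and 6 were lower and 1 higher in the knockout (5 and 0 after the GC correction, 1 and 0 from C alone). The difference of Derl2 in the knockout, −0.85, was −0.32 after the GC correction. The abundant Ssr4 and Spcs1 had day 45 differences of −0.03 and 0.20 (limma, adjusted p = 0.945 and 0.473). None of the 18 stress sensors and eIF2 regulators was called at day 45, and 1 was higher and 1 lower at days 100 and 200, while after the GC correction 2 were higher at day 45 and 4 higher and 1 lower at days 100 and 200. Of their abundant members, Creb3l3, a hepatocyte factor cleaved like Atf6, fell by 0.63 at days 100 and 200 (limma, adjusted p = 0.0316), and Creb3 had differences from day 0 between 0.03 and 0.26 that did not pass the test. In the knockout 5 of the 18 were lower, 1 was after the GC correction and 0 were from C alone.

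Many genes of amino acid supply are known targets of Atf4. Of 20 genes of amino acid synthesis and transport, 7 were called higher and 1 lower at day 45, 8 and 2 at days 100 and 200, and 6 and 3 in the knockout (7 and 2 after the GC correction). Slc1a4, a transporter of small neutral amino acids, rose by 2.05 at day 45, from 1.18 to 4.43 FPKM at day 0 to 10.7 to 17.8. Slc1a5, a glutamine transporter, rose by 1.27 and Psat1, of serine synthesis, by 1.00 at day 45. Psat1 rose by 2.08 at days 100 and 200, from 0.411 to 0.498 FPKM at day 0 to 6.34 and 4.04. Gls2, the liver's glutaminase, fell by 1.53 at day 45. The abundant Cth and Slc38a4 did not pass the test at day 45 (0.70 and −0.08, limma, adjusted p = 0.234 and 0.884). The median of this list was 0.54 at day 45 and 0.24 in the knockout, and from knockout C alone it was −0.04 with no gene called.

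Of 16 stress-induced factors and hormones, 3 were higher and 1 lower at day 21, 4 and 1 at day 45, 3 and none at days 100 and 200, and 7 and 1 in the knockout (6 and 1 after the GC correction). Cdkn1a, a cell cycle inhibitor raised by p53, rose by 3.93 at day 21, from 1.36 to 4.34 FPKM at day 0 to 32.7 to 69.3. Nfe2l2 (Nrf2) rose by 1.16, Ddit4, an mTORC1 inhibitor like Sesn2, by 0.97 and the autophagy receptor Sqstm1 by 0.64 at day 45. Atf5, a factor of the same family as Atf4, fell by 1.23 at day 45, from 146 to 219 FPKM at day 0 to 67.0 to 84.8. None of these 16 genes was called from knockout C alone.

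Of 20 tRNA synthetases, 3 were called higher at day 45 (Wars by 0.80, Sars by 0.70 and Qars by 0.66) and 1 lower (Tars, −1.06), and 5 and 4 in the knockout (4 and 6 after the GC correction, 0 and 0 from C alone). The abundant Aars and Nars had day 45 differences of −0.05 and 0.24 (limma, adjusted p = 0.891 and 0.547). Of 12 cytosolic heat shock genes, Cryab rose by 1.57 and Hsph1 fell by 1.05 at day 45. Hspa8, the constitutive Hsp70, fell in the knockout (limma, adjusted p = 0.000315), at 32.9, 28.5 and 17.2 FPKM against 75.4 to 82.0 at day 0, by 1.67 on the log2 scale after the GC correction, and Hsp90ab1 rose by 0.46 there, or 0.41 after the correction. In the knockout 2 of the 12 were higher and 2 lower (2 and 4 after the GC correction, 0 and 2 from C alone). Of 10 genes of mitochondrial protein quality control none was called higher, and 2, 1, 4 and 5 were lower in the 4 comparisons with day 0, which became 4, 3, 5 and 7 after the GC correction, and 0 were from knockout C alone. Clpx, a subunit of a mitochondrial protease, fell by 1.66 at day 45, and of the abundant members Trap1 fell by 0.54 at days 100 and 200 while Hspa9 was at −0.59 there (limma, adjusted p = 0.0651).

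**Figure D4:**
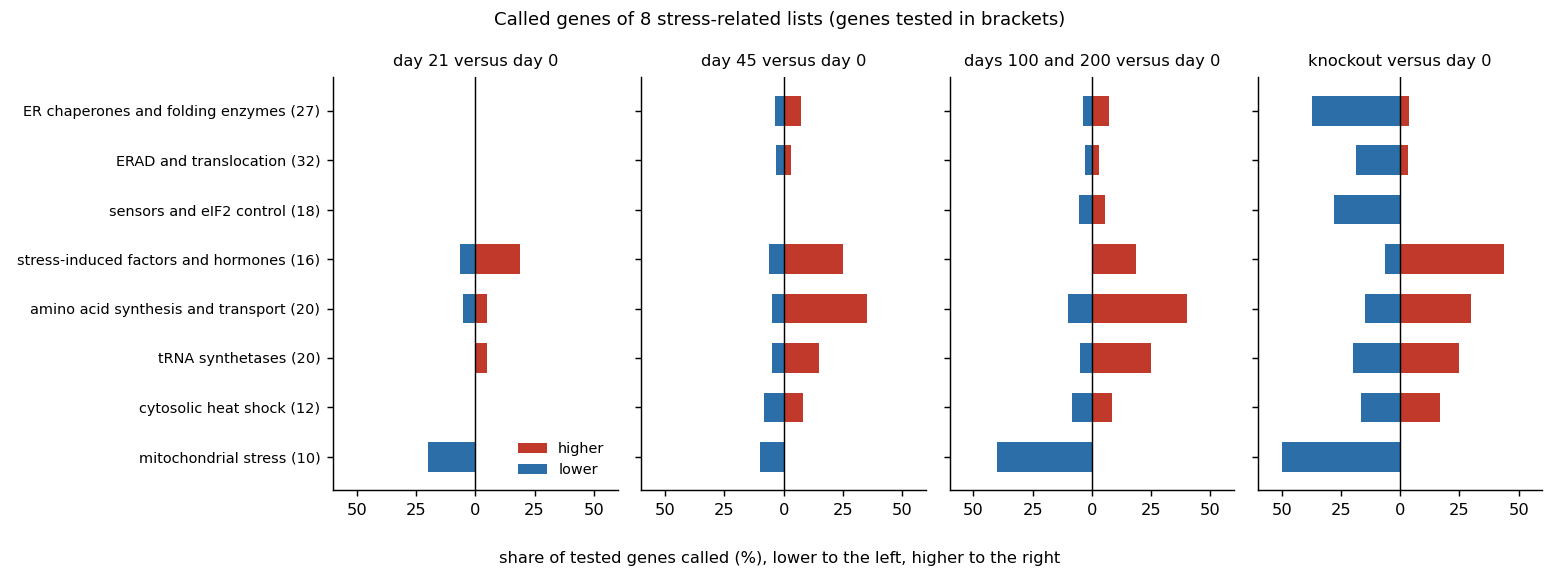
Share of tested genes called higher (right, red) and lower (left, blue) in percent, for 8 gene lists with the number of genes tested in brackets, in 4 comparisons with day 0. The amino acid list has 7 of 20 genes higher at day 45, and the ER chaperone list has 10 of 27 lower in the knockout.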

How the data were processed

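Poly-A RNA of 14 livers was sequenced as paired reads by the study. The authors aligned the reads to the mm9 genome with TopHat and deposited FPKM from Cufflinks (version 2.2.1 per the labels), with quartile scaling and after removing sequences of ribosomal RNA, snoRNA and mitochondria. For the small RNA libraries the authors aligned reads with Bowtie (version 0.12.7 per the labels) and deposited RPM with 1 added, of which only the share of miR-122 was used, after the 1 was removed. The RNA-seq table holds 22308 rows, and the rows of the 224 symbols with several were summed. Reads per library are not in the table, and the fragment numbers quoted are rough, from the lowest values of genes with 1 transcript.

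log2(FPKM + 1) of the 11354 genes whose mean reached 1 FPKM was fitted with limma 3.58.1 (R 4.3.3, lmFit, contrasts, eBayes with trend) in 1 fit of 5 groups, since FPKM are not counts, with Benjamini-Hochberg adjustment within each comparison and a threshold of 0.05. Each library is 1 mouse. The comparisons with day 0 share its 3 livers. A simulation of day 45 against day 0 was also run, with independent noise and no GC trend, and no result here rests on it. GC content is that of the longest coding transcript of each symbol in GENCODE M1 (11090 of the tested genes), and the GC correction subtracts from each library a loess curve (span 0.3) of the deviations from gene means on GC.

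The 10 genes and the lists were chosen with earlier results of these data known. From each list, the genes named are the 3 largest rises and 3 largest falls among those called at day 45 and the 2 most abundant. Hsp90b1, Hyou1, Ero1lb and Canx were named after their values were seen. The likeness of other genes to Xbp1 is not reported here. Alternatives were a pseudocount of 0.1, no filter, median scaling, only the compared groups, the highest row of a symbol, a replicate block and leaving out each library in turn. The GC correction and the fit with knockout C alone, in which the lone liver is assumed to vary like the other groups, were added after seeing the data. Python 3.11.15 with pandas 2.3.3, numpy 2.4.6 and matplotlib 3.10.9 made the tables and plots.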

Additional observations from a re-analysis of the deposited data

Results flagged for a closer look

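The knockout was compared directly with day 45 after Cre, and 3 of the 10 genes were called, beside 9.44% of all tested genes. Asns was higher in the knockout by 2.04 on the log2 scale, Hspa5 was lower (−0.92) and so was Sesn2 (−0.61). Of 15 alternative settings, 7 lost the call of Asns, 9 that of Hspa5 and 11 that of Sesn2, and a fit of only these 2 groups called none of the 10. Knockout A and B stood apart from C, and from C alone the difference was 2.17 for Asns, −0.48 for Hspa5 and −1.02 for Sesn2 (limma, adjusted p = 0.153, 0.387 and 0.0140). The mice also differ in Cre, in vector and in how long miR-122 was absent, which cannot be told apart.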

How the results depend on the processing

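In 940 recomputed values of single genes the sign changed in 65, none of them called before or after, 53 of 184 recomputed calls were lost, and 12 values were newly called. Sesn2 at every time after Cre and Hspa5 in the knockout were called in every alternative tried.
The number of the 10 genes called at day 45 (2) was 1 to 2 when 1 library was left out, 1 with the replicate block and 3 in a fit of only the compared groups. At days 100 and 200 (2) it was 1 without the filter, 3 with the GC correction, 4 in a fit of only the compared groups, and 1 to 3 with 1 library left out. In the knockout against day 0 (5) it was 3 in the fit of only the compared groups, 3 with the GC correction, 1 from knockout C alone, 6 with median scaling and 3 to 6 with 1 library left out. In the knockout against day 45 (3) it was 1 with a pseudocount of 0.1, 1 with median scaling, 0 with only the compared groups, 1 with the replicate block, 1 from knockout C alone and 0 to 7 with 1 library left out, the 7 without knockout C. Without knockout C, 7100 genes in all were called against day 0 and 5919 against day 45, where all libraries gave 3833 and 1072, and knockout C alone gave 657 and 280. The replicate block was fitted to the 12 lettered libraries, where 467 genes were called at day 21 with it and 700 without, 1 and 25 between days 45 and 21, and 437 and 677 between knockout and day 45, while the fit of all 14 gave 865, 31 and 1072. Of the 10 genes, those 12 libraries without the block gave 2 calls at day 45 and 2 between knockout and day 45. The GC correction gave 1576 at day 21 and 37 between days 100 and 200 and day 45 (25 without). The cause of these changes was not tested. No block could be fitted for days 100 and 200, which carry no letters. The letters were not taken as pairs: 8 of 18 same-letter correlations and 15 of 36 others were over 0.1. Counts were not used here, so that counting error could not be separated from the spread between the 2 or 3 mice of a group.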
